A study of Rattus norvegicus with 6 samples.

Results

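The Id family consists of 4 genes, Id1, Id2, Id3 and Id4, which were found by their symbols among the 17327 genes counted in cultures of Schwann cells, which ensheathe and myelinate the axons of peripheral nerves. All 4 were listed in every library, and all 4 were among the 9740 genes that passed a filter on low counts and were tested for a response to soluble Neuregulin1 (NRG1). The cells were primary cultures from the sciatic nerves of adult female Wistar rats, grown without axons in a medium that already held a neuregulin type growth factor and forskolin, a compound that raises cAMP. Confluent cells of both groups were then starved for 18 h in 2% serum with 10 μM forskolin. The 3 NRG1 samples received 10 nM recombinant soluble NRG1β1 for 6 h, and the 3 mock samples received the buffer of the ligand for the same time. Each of the replicates 1, 2 and 3 was an independent cell preparation that gave 1 mock and 1 NRG1 sample, so that the samples were compared in pairs.

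Id proteins are small nuclear proteins with a helix-loop-helix domain but no basic region, and they are therefore unable to bind DNA. They pair with the ubiquitous bHLH factors called E proteins and keep them, and the tissue-specific bHLH factors that need them as partners, away from their DNA site, the E box. In this way they delay differentiation and favour cell division in many lineages. Their transcription is a classical early response to bone morphogenetic proteins (BMPs) acting through SMAD1, SMAD5 and SMAD9, and is also controlled by serum and growth factors. In myelin-forming glia, Id2 and Id4 are known as inhibitors of differentiation.

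The sequence just before each gene is shown because the genes did not share one pattern across the samples. All 4 members matched RefSeq by symbol, and the sequences are those of RefSeq on the GRCr8 assembly, while the reads had been mapped to rn5. Each line gives the 150 bases before the annotated start of the gene, 5′ to 3′ on its own strand, with capitals for the TATA box (TATAAA) and the CCAAT box (CCAAT, or ATTGG when it lies on the opposite strand).
Id1: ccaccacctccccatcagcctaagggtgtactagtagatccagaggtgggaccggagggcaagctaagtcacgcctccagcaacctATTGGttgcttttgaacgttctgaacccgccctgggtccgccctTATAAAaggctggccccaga
Id2: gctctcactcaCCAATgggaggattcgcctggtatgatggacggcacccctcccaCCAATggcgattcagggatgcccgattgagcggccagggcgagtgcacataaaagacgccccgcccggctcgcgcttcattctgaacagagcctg
Id3: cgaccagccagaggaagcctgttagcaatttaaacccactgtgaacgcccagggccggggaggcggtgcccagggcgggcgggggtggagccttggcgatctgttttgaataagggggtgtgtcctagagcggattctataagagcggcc
Id4: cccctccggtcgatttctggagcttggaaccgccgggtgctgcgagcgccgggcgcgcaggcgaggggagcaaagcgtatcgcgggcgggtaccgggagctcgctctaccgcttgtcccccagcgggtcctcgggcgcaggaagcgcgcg

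These windows lie at chr3:161671375-161671524 on the plus strand for Id1, chr6:47470996-47471145 on the minus strand for Id2, chr5:153656103-153656252 on the plus strand for Id3 and chr17:16598294-16598443 on the minus strand for Id4. Id1 held 1 TATA box, which began 20 bases before the start of the gene, and 1 CCAAT box. Id2 held 2 CCAAT boxes, and Id3 and Id4 held neither motif. Of 24679 RefSeq genes with a window of this length, 8.62% held TATAAA and 23.85% held CCAAT, counting both strands. The other motifs searched were the E box CANNTG, present in 47.34% of these windows, TGACG, the core of the cAMP response element, in 12.62%, the SMAD element GGCGCC in 5.38% and the EGR site GCGGGGGCG in 1.65%, and none of these letters was found in the windows of the 4 members. Sequence outside these 150 bases was not searched, so motifs further upstream would not be seen. In the same RefSeq annotation a long non-coding RNA gene overlapped Id1. Whether that RNA gene was in the rn5 annotation used for counting was not examined. Whether strand was used in the counting is not given in the sources used here. Reads of that RNA may therefore be among those of Id1, which was not tested.

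Counts on genes ranged from 6821590 to 15475018 per library, and the members themselves were counted between 111 and 4107 times. Levels are given as CPM, counts per 1000000 counts of the library after TMM, a correction for library composition. The cultures were not alike. All 8 Schwann cell markers examined passed the filter, and their summed level was between 12636 and 16183 CPM in both samples of replicates 2 and 3, against 6236 and 4918 CPM in the mock and NRG1 samples of replicate 1. The fibroblast markers Dcn, Lum and Thy1 had no count in the 4 libraries of replicates 2 and 3. In replicate 1 Dcn was counted at 611.2 and 427.0 CPM and Thy1 at 1268 and 1143 CPM in mock and NRG1, and the summed level of the 8 fibroblast markers was 53432 and 57725 CPM against 13696 to 22338 CPM in the other 4 libraries. Col1a1 and Col3a1 were the largest parts of this sum, while Fbln1 was at 3.03 to 7.88 CPM over the 6 libraries. Pericyte and smooth muscle markers summed to 3120 and 3173 CPM in mock and NRG1 of replicate 1, against 230.9 to 414.8 CPM in the other 4 libraries. The endothelial markers Pecam1, Cdh5, Cldn5 and Esam and the macrophage markers Ptprc, Adgre1 and Cd163 had no count in any of the 6 libraries. Other markers on these lists were counted. The endothelial marker Tek was at 5.87 to 14.8 CPM and the macrophage marker Cd68 at 2.00 to 3.68 CPM over the 6 libraries. Cd14, a macrophage marker, was at 7.75 and 5.33 CPM in mock and NRG1 of replicate 1 and at 0.34 CPM or less in the other 4 libraries. In bulk samples, fewer cells of a type and less RNA per cell cannot be told apart.

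None of the 4 Id genes passed the test for a response to NRG1 after 6 h. The test was edgeR's quasi-likelihood test with the replicate as a block and a limit of 0.01 on the adjusted p, which 11.8% of the 9740 genes passed, 6.31% with a higher and 5.51% with a lower level in NRG1. A p that misses this limit does not show that a gene did not differ. The members did not share a direction. Id1 and Id4 had positive fitted changes, with log2 fold changes of 0.77 and 0.47, and Id2 and Id3 had negative ones, of -0.32 and -0.17. The median over all genes tested was -0.03. At the more permissive adjusted p of 0.05, which 23.2% of the genes passed, 11.5% higher and 11.7% lower in NRG1, Id1 and Id4 passed and Id2 and Id3 did not. No member had an absolute log2 fold change over 1, a size that 3.47% of the genes had while also passing the limit of 0.01. All 3 NRG1 samples lay above all 3 mock samples for 10.2% of the genes, and NRG1 was higher in all 3 pairs for 25.9%, but neither was the case for any member.

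**Figure D1:**
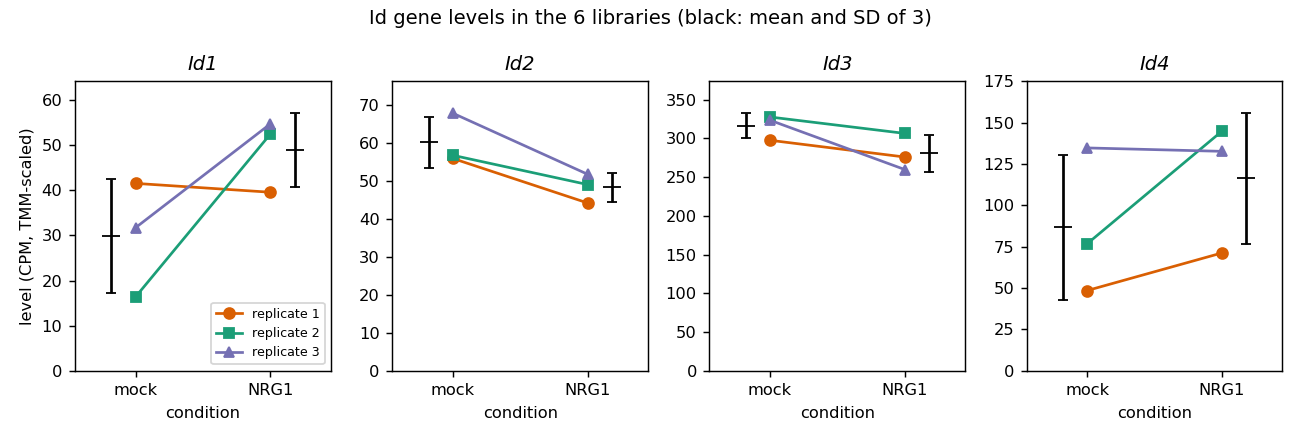
Level of each Id gene in CPM (vertical axis, from 0) in mock and NRG1 samples (horizontal axis), with a line for each replicate and black bars for the mean and SD of 3 samples. Id1 was higher in NRG1 in replicates 2 and 3 only, Id2 and Id3 were lower in NRG1 in all 3 pairs, and Id4 was higher in NRG1 in replicates 1 and 2.

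Id1, the member best known as a direct target of BMP signalling, had the largest fitted change of the family. Its level in mock samples 1, 2 and 3 was 41.6, 16.4 and 31.8 CPM, and in NRG1 samples 1, 2 and 3 it was 39.6, 52.5 and 54.7 CPM. The mock samples thus spanned a 2.53-fold range and the NRG1 samples a 1.38-fold range, and the groups overlapped only through replicate 1, whose mock sample was above its own NRG1 sample. Mock samples averaged 29.9 ± 12.7 CPM and NRG1 samples 48.9 ± 8.17 CPM (SD, n = 3 each). The fit gave a 1.70-fold change with a 95% interval from 1.22 to 2.37, or 0.77 ± 0.22 (SE) on the log2 scale with an edgeR adjusted p of 0.024. This SE and interval draw on the variance of other genes and do not measure the spread between the 3 pairs. With robust empirical Bayes, a variant of the same fit, the SE was 0.31 and the edgeR adjusted p 0.13. The fitted change was larger in size than that of 91.1% of the genes tested.

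The 3 pairs of Id1 differed from each other by more than the error of counting. NRG1 over mock was 0.95-fold in replicate 1, with an exact 95% binomial interval from 0.81 to 1.12. It was 3.20-fold in replicate 2, with an interval from 2.59 to 3.97, and 1.72-fold in replicate 3, with an interval from 1.53 to 1.95. These intervals, which cover counting error only, did not overlap. On the log2 scale the ratios were -0.07, 1.66 and 0.78, and this spread between pairs was wider than that of 98.4% of the genes tested. In the fit without replicate 1, 12.0% of the genes passed, and Id1 passed and was changed by more than 2-fold. Its log2 fold change there was 1.19 ± 0.20 (SE of the fit, 2 pairs), with an edgeR adjusted p of 1.6e-07. This SE draws on the variance of other genes and is not the spread between the 2 pairs, which were at 1.66 and 0.78. Without replicate 2 the log2 fold change was 0.39 (adjusted p = 0.11) and without replicate 3 it was 0.78 (adjusted p = 0.034). Over all 14 alternatives the log2 fold change of Id1 was positive, and in the 13 that tested against no change its adjusted p ranged from 1.6e-07 to 0.42. Replicate 1, the pair with the smallest ratio of Id1, was also the pair with the highest summed level of fibroblast markers and the only one with counts of Dcn, Lum and Thy1, and their part in the result was not tested.

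**Figure D2:**
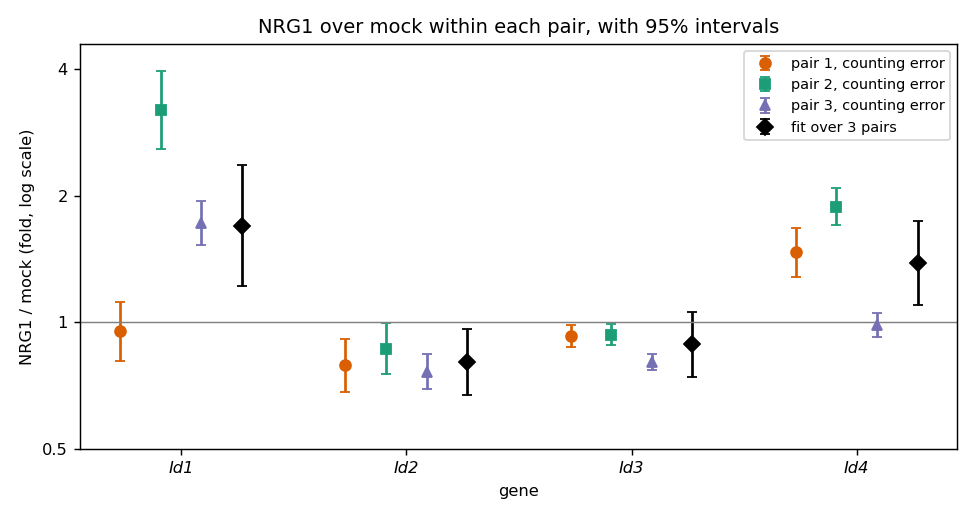
NRG1 over mock (vertical axis, fold on a log scale) for each Id gene (horizontal axis) within pairs 1, 2 and 3, with 95% intervals of counting error, and for the fit over the 3 pairs, with its 95% interval (black). The intervals of the 3 pairs did not overlap for Id1, where they reached from 0.81 to 3.97. They lay close together for Id2, between 0.68 and 0.99. The black intervals draw on the variance of other genes and are not the spread between pairs.

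Id4, which in the nervous system is known for its role in neural and oligodendrocyte precursors, was counted at 48.5, 76.8 and 134.7 CPM in mock samples 1, 2 and 3 and at 71.2, 144.8 and 132.6 CPM in NRG1 samples 1, 2 and 3. Both samples of replicate 1 were the lowest of their group, and the groups overlapped widely. The spread between cultures was large in mock, with a coefficient of variation of 50.7% against a median of 18.6% over all genes tested, and 33.9% in NRG1. Mock samples averaged 86.7 ± 43.9 CPM and NRG1 samples 116.2 ± 39.4 CPM (SD, n = 3 each). The fitted change was 1.39-fold, with a 95% interval from 1.10 to 1.74, and its log2 value of 0.47 had a standard error of 0.16 and an adjusted p of 0.042 in edgeR.

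Within the pairs, NRG1 over mock for Id4 was 1.47-fold in replicate 1 (95% counting interval 1.28 to 1.68), 1.88-fold in replicate 2 (1.70 to 2.09) and 0.98-fold in replicate 3 (0.92 to 1.05). The pair with the smallest ratio was replicate 3 for Id4 and replicate 1 for Id1. Without replicate 3, Id4 passed the test, in a fit in which 6.51% of the genes passed. Its log2 fold change there was 0.76 ± 0.18 (SE of the fit, 2 pairs), with an edgeR adjusted p of 0.0032. As for Id1, this SE is not the spread between the 2 pairs, which were at 0.55 and 0.91 on the log2 scale. Without replicate 1 the fitted log2 value was 0.44 (adjusted p = 0.071) and without replicate 2 it was 0.24 (adjusted p = 0.25).

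Id2, an Id protein that also binds the retinoblastoma protein and is known to hold back myelin gene expression, was the member with the most even response. It was counted at 56.0, 56.8 and 67.9 CPM in mock samples 1, 2 and 3 and at 44.3, 49.1 and 51.8 CPM in NRG1 samples 1, 2 and 3. All 3 NRG1 samples lay below all 3 mock samples, as in 9.94% of the genes tested. The averages were 60.2 ± 6.66 CPM for mock and 48.4 ± 3.84 CPM for NRG1 (SD, n = 3 each). NRG1 over mock was 0.79-fold, 0.86-fold and 0.76-fold in replicates 1, 2 and 3, and 30.0% of the genes tested were lower in all 3 pairs. The fitted log2 value was -0.32 ± 0.12 (SE, edgeR adjusted p = 0.076), or 0.80-fold with a 95% interval from 0.67 to 0.96. The lowest adjusted p over the 14 alternatives was 0.043, in the fit without replicate 2, so that no alternative brought Id2 past the adjusted p of 0.01.

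Id3, which like Id1 responds to BMPs and serum in many cell types, was the steadiest member between the mock cultures. It was counted at 297.7, 327.8 and 323.6 CPM in mock samples 1, 2 and 3 and at 276.1, 306.6 and 260.0 CPM in NRG1 samples 1, 2 and 3. The mock samples differed by no more than 1.10-fold, with a coefficient of variation of 5.15%. The groups overlapped in a single place, since NRG1 sample 2 was above mock sample 1. The averages were 316.3 ± 16.3 CPM for mock and 280.9 ± 23.7 CPM for NRG1 (SD, n = 3 each). NRG1 over mock was 0.93-fold, 0.94-fold and 0.80-fold in replicates 1, 2 and 3. The fitted log2 value was -0.17 ± 0.12 (SE, edgeR adjusted p = 0.32), and the 95% interval of the fold, from 0.74 to 1.06, included no change.

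**Figure D3:**
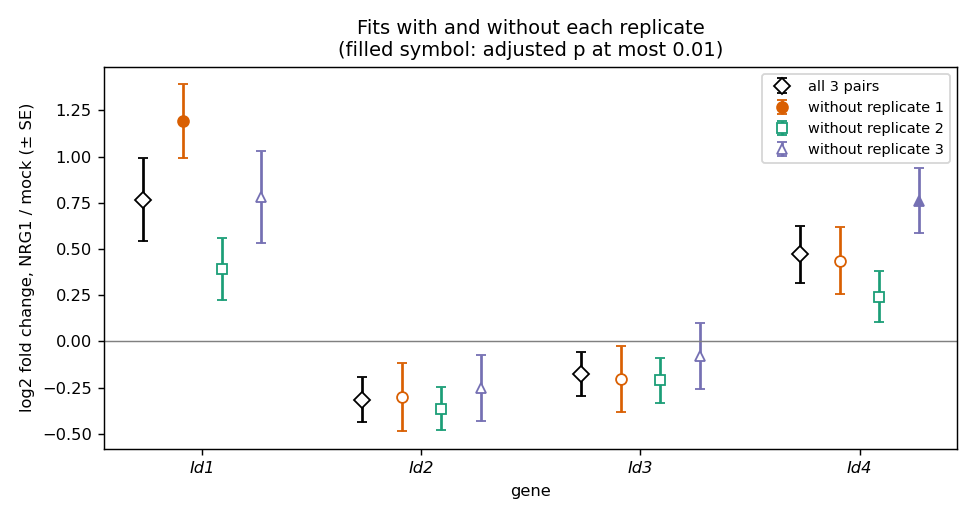
Fitted log2 fold change of NRG1 over mock with its standard error (vertical axis) for each Id gene (horizontal axis), with all 3 pairs and without each replicate in turn, where filled symbols have an adjusted p of at most 0.01. Id1 passed without replicate 1 and Id4 without replicate 3, while Id2 and Id3 stayed between -0.36 and -0.08 and did not pass in any of these fits.

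The responses of the members were then compared with each other within the pairs, in 6 comparisons. An exact permutation test over 3 pairs, two-sided, cannot give a p below 0.25, so none of these differences could pass. The difference between the log2 ratios of Id1 and Id2 was 0.27, 1.87 and 1.17 in replicates 1, 2 and 3, a mean of 1.10 ± 0.80 (SD, n = 3 pairs, exact p = 0.25, adjusted over the 6 comparisons 0.30). Id1 exceeded Id3 by 0.04, 1.76 and 1.10. Id4 exceeded Id2 by 0.89, 1.12 and 0.37 and Id3 by 0.66, 1.01 and 0.29 in replicates 1, 2 and 3. Id2 and Id3 were close to each other, with differences of -0.23, -0.11 and -0.07 and a 95% interval of the mean from -0.34 to 0.06. Only Id1 and Id4 changed order between pairs, with a difference of -0.62 in replicate 1 and of 0.75 and 0.80 in replicates 2 and 3.

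For each member, the 3 genes with the most similar course over the 6 samples were identified among 9735 other genes with a mean of at least 1 CPM. Similarity was measured as the root mean square difference of log2 levels after each gene was centred on its mean, and is a description over 6 samples only. The nearest genes were Dctpp1, Rgs10 and Lrfn1 for Id1, at differences of 0.10, 0.16 and 0.19, beside a spread of Id1 itself of 0.58, and of these Dctpp1 and Lrfn1 were at only 0.59 to 3.03 CPM. For Id4 they included Lyrm9 and Rbm38, at 0.11 and 0.13, beside a spread of 0.58. Id2 and Id3 varied little, with spreads of 0.19 and 0.12. Their nearest genes were Edem2, Hmces and Nfkbil1 for Id2, at 0.06 each, and Ssu72, Anapc10 and Eri1 for Id3, at 0.04 each. None of the genes named here as nearest passed the test for NRG1. No Id gene was among the nearest genes of another.

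Next, the genes around the Id proteins were examined. Of 117 genes in 11 lists, 114 were in the files and 77 were tested, of which 5 rose and 14 fell at the adjusted p of 0.01, beside 6.31% and 5.51% of all genes tested. Of the 14 that fell, 8 were glial differentiation genes, which were picked with their decrease in these data known. The E proteins, the direct partners of the Id proteins, came first. None of the 3 passed. Tcf4 was counted at 59.3, 85.7 and 51.4 CPM in mock samples 1, 2 and 3 and at 45.3, 41.4 and 48.9 CPM in NRG1 samples 1, 2 and 3, which gave -0.50 ± 0.16 (SE) on the log2 scale and an edgeR adjusted p of 0.040. All NRG1 samples were below all mock samples, but replicate 2 differed most and replicate 3 little. Tcf3, which encodes E12 and E47, had a log2 fold change of 0.32 (adjusted p = 0.066) and Tcf12, which encodes HEB, of 0.26 (adjusted p = 0.19).

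Among 28 other bHLH factors, 9 were tested and 1 passed. Heyl, a Notch effector, was low, at no more than 94 counts per library, and rose from an average of 1.98 to 5.62 CPM, by 1.48 on the log2 scale (adjusted p = 0.0040). Its log2 ratios were 0.00, 1.50 and 1.69 in replicates 1, 2 and 3, of which as for Id1 that of replicate 1 was the smallest, and it passed without replicate 1 (adjusted p = 9.3e-06) but not without replicate 2 or 3 (0.029 and 0.078). The Notch target Hes1 had a log2 fold change of 0.60 (adjusted p = 0.029). The oligodendrocyte factors Olig1 and Olig2 stayed at 4 counts or fewer in every library and were not tested. The median of the 9 tested was -0.21, beside -0.03 for all genes.

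In the BMP pathway, the genes that passed encode secreted factors and a ubiquitin ligase. Of 9 ligands only Bmp7 was tested, and it rose from 7.62, 9.17 and 22.1 CPM in mock samples 1, 2 and 3 to 44.1, 43.8 and 67.4 CPM in NRG1 samples 1, 2 and 3, which was 2.06 ± 0.17 (SE) on the log2 scale (adjusted p = 4.6e-06). The groups did not overlap, and the log2 ratios of Bmp7 were 2.50, 2.23 and 1.60 in replicates 1, 2 and 3. The ligand Gdf6, at 3 to 32 counts per library, was left out by the filter. It was at 0.40 to 0.47 CPM in mock and at 1.07 to 2.07 CPM in NRG1. In the fits without replicate 1 or 2, Gdf6 passed the filter only through its NRG1 samples. Its log2 fold changes there were 2.00 and 1.89. No p is given for them, because the filter itself favoured a higher level in NRG1. Without replicate 3 it was again left out. None of 5 tested receptors and none of 3 tested SMADs passed, and their log2 fold changes lay between -0.20 and 0.14. Of 10 antagonists and inhibitory factors tested, Sostdc1, a secreted antagonist of BMP and Wnt signals, fell from an average of 38.6 to 12.8 CPM, or 0.34-fold (adjusted p = 1.3e-05). Smurf1, a ubiquitin ligase for SMAD1 and SMAD5, rose with a log2 fold change of 0.53 (adjusted p = 0.0060), a call lost without replicate 1 or 3 (0.044 and 0.046). Smad6 and Bambi, which like the Id genes are often induced by BMPs, had log2 fold changes of 0.05 and 0.07 (adjusted p = 0.83 and 0.82), and Smad7 of 0.42 (adjusted p = 0.072). Whether any gene of the BMP pathway had a part in the levels of the Id genes was not tested.

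Of 9 factors known to act on Id promoters or on Id transcription, 2 rose and 2 fell. Atf3, a stress factor known to repress Id1 together with SMAD3, fell most, with a log2 fold change of -3.03 (adjusted p = 6.1e-08). Egr1, an immediate-early factor that binds Id promoters, was counted at 24.2, 27.5 and 33.3 CPM in mock samples 1, 2 and 3 and at 23.7, 6.86 and 11.9 CPM in NRG1 samples 1, 2 and 3, and fell, with a fitted log2 value of -1.13 ± 0.26 (SE, adjusted p = 0.0071). The NRG1 sample was close to its mock sample in replicate 1 and below it in replicates 2 and 3, and the call was lost without replicate 2 or 3 (adjusted p = 0.038 and 0.035). Myc, which activates Id2 in other cells, rose with a log2 fold change of 0.72 (adjusted p = 0.0017) and its relative Mycn with 0.98 (adjusted p = 0.0023). The call was lost for Myc without replicate 1 (0.014) and for Mycn without replicate 2 (0.0104).

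**Figure D4:**
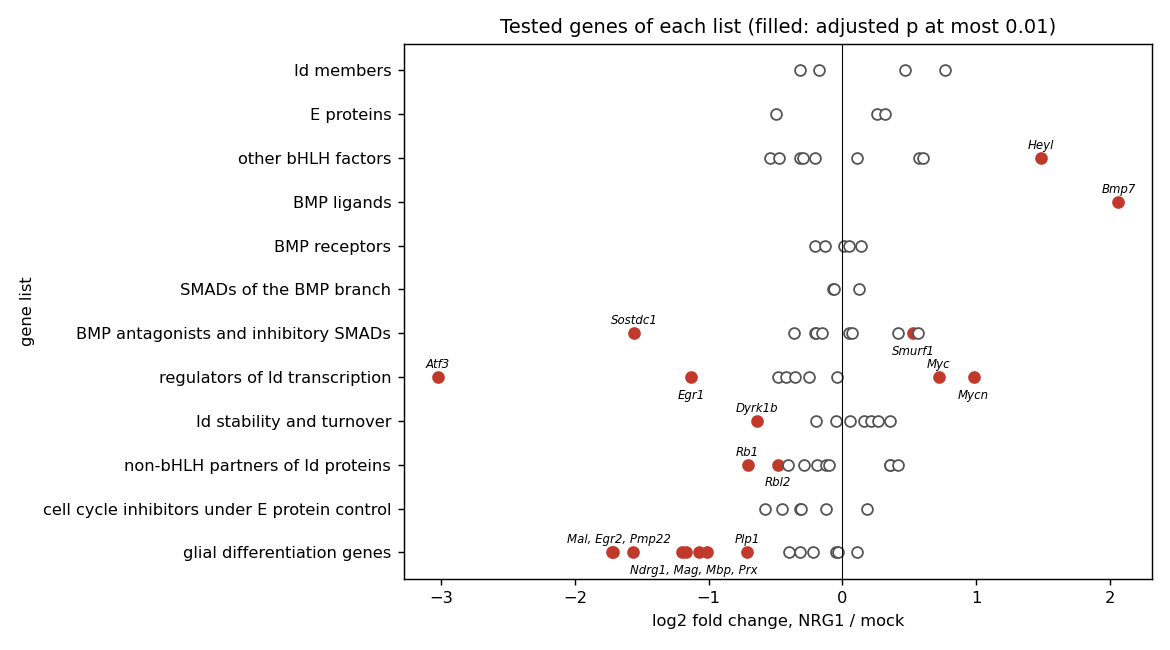
Fitted log2 fold change of NRG1 over mock (horizontal axis) for every tested gene of the Id family and of 11 lists of related genes (vertical axis), with filled points for the genes at an adjusted p of at most 0.01. The Id members, E proteins, BMP receptors, SMADs and cell cycle inhibitors have no filled point, while 8 of 14 glial differentiation genes are filled on the negative side.

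Other partners of the Id proteins were also measured. Of 10 tested partners outside the bHLH class, none rose and 2 fell. Rb1, the retinoblastoma gene whose product binds Id2, was counted at 75.5, 100.2 and 78.6 CPM in mock samples 1, 2 and 3 and at 46.8, 53.4 and 54.1 CPM in NRG1 samples 1, 2 and 3. The groups did not overlap, and the fitted log2 value was -0.71 ± 0.12 (SE, adjusted p = 0.0011), a call kept without any of the 3 replicates. Its relative Rbl2, which encodes p130, had a log2 fold change of -0.48 (adjusted p = 0.0091), a call lost without each replicate in turn (adjusted p between 0.014 and 0.077). Of 8 genes for the stability of Id proteins, Dyrk1b, a kinase, fell with a log2 fold change of -0.64 (adjusted p = 0.0090), a call lost without replicate 2 or 3 (0.036 and 0.053), and the deubiquitinase gene Usp1 had a log2 fold change of 0.06 (adjusted p = 0.78).

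Finally, a list of cell cycle inhibitors under E protein control and a list of glial differentiation genes were described. None of the 6 cell cycle inhibitors passed, and their median log2 fold change was -0.31. Cdkn1a, which encodes p21, had a value of -0.45 (adjusted p = 0.025) with all NRG1 samples below all mock samples. Of 14 glial differentiation genes, 8 fell and none rose, with a median log2 fold change of -0.86. The largest changes were those of Mal, Egr2, Pmp22 and Ndrg1, with 0.30-fold, 0.31-fold, 0.34-fold and 0.44-fold levels in NRG1. From 7 to 8 genes of this list fell in the fits without each replicate. The count is a description only, given how these genes were picked. Sox10, the lineage factor of Schwann cells, had a log2 fold change of 0.11 (adjusted p = 0.58). In the fit over the 3 pairs, the 95% intervals of the fold lay between 0.67 and 1.74 for Id2, Id3 and Id4, and that of Id1 reached 2.37. Whether the Id genes had a part in the changes of the glial differentiation genes was not tested.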

How the data were processed

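RNA from 3 mock and 3 NRG1 samples was selected for poly(A) and sequenced on an Illumina instrument by the authors. The authors mapped the reads to rn5 with TopHat2 2.0.10, assigned them to RefSeq genes with HTSeq (version and strand setting not given in the sources used here) and deposited raw counts, 1 file per sample. The 5 summary lines of each file, which held between 50.1% and 53.0% of the alignments, were left out of library sizes and tests. Condition and replicate number come from the sample titles.

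The filterByExpr function with a minimum count of 10 removed 7587 of 17327 genes. The remaining genes were normalised with TMM and fitted in edgeR 4.0.16 (R 4.3.3), blocking on replicate number because the methods describe paired samples. A gene was counted as changed at a Benjamini-Hochberg adjusted p of at most 0.01 over all 9740 genes. The standard error of a log2 fold change is its size divided by the square root of F, and so rests on variances for which edgeR shares information between genes. Log2 ratios of pairs used a prior count of 2. The floor of 3 counts corresponded to 0.19 to 0.44 CPM. Alternatives included DESeq2 1.42.0, other normalisations and filters, the fit without the block and the fits without each replicate.

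Across genes, deviations from the group means correlated with r between 0.67 and 0.91 for samples with the same number and between -0.80 and 0.51 otherwise, and the methods describe each number as an independent preparation. The script was tested on simulated data. Genes named are the members, the E proteins, up to 4 genes past the threshold in each list, the 3 nearest genes of each member (1 is not reported here) and the markers, while further list genes under the threshold were chosen after their values were seen. The members and lists were chosen with earlier results of these data known. Gene lengths of rn5 were not used here, so levels of different genes are not compared.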

Additional observations from a re-analysis of the deposited data

How the results depend on the processing

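Over 14 alternatives no Id gene changed direction, and Id2 and Id3 did not pass in any. Id1 and Id4 passed with no low-count filter (log2 fold changes of 0.75 and 0.46, adjusted p = 7.9e-05 and 0.0082) and at an adjusted p of 0.05 (0.77 and 0.47). Robust empirical Bayes raised the adjusted p of Id1 to 0.13. Without each replicate in turn, the log2 fold change ranged from 0.39 to 1.19 for Id1 and from 0.24 to 0.76 for Id4. The cause of these shifts was not tested.

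With no replicate block, 0 genes passed in edgeR in either direction, with or without the fold limit or within the lists, beside 1334 genes at an unadjusted p under 0.05, and the adjusted p of Id1, Id2, Id3 and Id4 was 0.42, 0.40, 0.67 and 0.74. DESeq2 with no replicate block gave 115 genes higher and 63 lower, 54 and 34 past 2-fold, and 1 and 3 in the lists. DESeq2 with replicate block gave 123 genes lower past 2-fold, against 186 in edgeR. With no low-count filter 857 genes were lower, against 537. Placing the 2-fold limit inside the test left 13 genes higher and 9 lower, against 152 and 186. At an adjusted p of 0.05, 1124 genes were higher and 1136 lower, against 615 and 537, and 9 list genes were higher, against 5. Without each replicate, from 408 to 590 genes were higher and from 253 to 601 lower, from 122 to 299 were lower past 2-fold, and from 3 to 7 list genes were higher. The fit without replicate 3 gave 408 and 253, that without replicate 1 gave 299 lower past 2-fold and that without replicate 2 gave 122, and 3 list genes were higher without replicate 2 or 3. The effect of depth was not tested, and the exact test over 3 pairs could not give a p below 0.25 for any difference between members.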

Other observations

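In the BMP and bHLH lists, 6 genes were counted over 100 times in a library but were left out by the filter, because they were present almost only in replicate 1. Grem1, a secreted BMP antagonist, was at 3597 and 3055 CPM in the mock and NRG1 samples of replicate 1 and at 0.22 CPM or less in the other 4 libraries. Eng, a co-receptor of BMP9 and TGF-β, was at 240.8 and 288.0 CPM in replicate 1 and at 0.30 CPM or less elsewhere. Bmp4, Acvrl1, Bmpr1b and Twist1 were between 14.4 and 30.7 CPM in replicate 1 and at 0.45 CPM or less in the other libraries. Replicate 1 was also the preparation in which Id1 was highest in mock and in which Id4 was lowest in both groups. Whether these genes have a part in the levels of Id1 or Id4 was not tested, and a single preparation cannot show it.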
